A study of Larimichthys crocea with 4 samples.

Results

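The liver library of normally fed large yellow croaker (Larimichthys crocea), the control of a study of fasting and temperature stress in this marine fish, was described on its own for what it expresses. It was 1 of 4 libraries, chosen by its label, and 53847 of the 57216 unigenes of the assembly (94.1%) had at least 1 fragment in it. A unigene is a transcript sequence assembled from the reads without a genome, so that several unigenes can belong to 1 gene. The fish of this library received no treatment and were fed surimi in sea cages. The other 3 libraries came from livers after 12 h of thermal stress, after 12 h of cold stress and after 21 d of fasting. Per the study's methods, messenger RNA of the normal feeding and fasting libraries was taken from the livers of several fish each, which are not told apart in the values. With 1 library per condition there was no spread between replicates, and no test was made.

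The liver makes most proteins of the blood plasma, among them apolipoproteins that carry lipid, binding proteins for iron, copper and heme, the complement proteins and the clotting factors. It also turns over sugars, fatty acids, sterols, amino acids and foreign compounds through enzymes that stay inside the hepatocyte. In many bony fish, exocrine pancreas, the tissue that makes digestive enzymes, lies scattered around the liver or grows into it along the portal veins.

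The library held 17.49 M fragments, and the other 3 held between 17.02 M and 19.53 M. A fragment is a read pair assigned to a unigene, and FPKM divides the fragments of a unigene by its length and by the depth of the library. Shares of fragments below are shares of all fragments of the library unless said otherwise, and a long transcript gives more fragments per molecule than a short one. The 95% Wilson intervals of these shares covered counting error only and reached at most 0.0233 percentage points to either side, so they were left out except where a count was low. A count of 0 would allow a share of up to 1.71e-05% by a limit of 3 fragments, and up to 2.20e-05% by the Wilson interval. The median detected unigene had 14 fragments, and the 33704 unigenes with at least 10 fragments held 99.4% of all fragments. In a bulk liver sample, fewer cells of a type and less RNA per cell cannot be told apart.

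Most of the fragments assigned to unigenes had a protein hit, although many of the unigenes had none. Reads not assigned to a unigene entered no share. Unigenes with a protein hit in the Nr database made up 55.6% of the assembly and 95.05% of the fragments. For Swissprot the values were 49.0% of unigenes and 83.9% of fragments, and for KO, the KEGG orthology entries that group the same gene across species, 39.6% of unigenes and 73.5% of fragments. All 3 annotations were present on unigenes with 73.2% of the fragments. The 25324 unigenes with none of the 3 were 44.3% of the assembly and held 4.94% of the fragments. The annotated unigenes were longer, with a median of 691 bp for those with a KO and 317 bp for those with none of the 3 annotations, against 402 bp over all unigenes.

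Fragments with an Nr hit went mostly to fish proteins. The best hit was a bony fish protein for 92.7% of the fragments, another vertebrate for 0.933% and another organism for 1.15%. The Nile tilapia Oreochromis niloticus gave the best hit for 16099 unigenes and 25.3% of the fragments. The croaker's own entries were the best hit of only 143 unigenes, and these held 16.7% of the fragments. Transferrin, collectin-12, leukocyte cell-derived chemotaxin-2 and the ferritin heavy chain were among these croaker hits. By COG class, which covered 37.9% of the fragments, secreted trypsin-like serine proteases led with 5.19% and serine protease inhibitors followed with 2.39%.

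A small number of genes made up much of the library. Fragments summed by KO gave 5423 detected KO sums, and the largest of them, transferrin, held 8.005% of the fragments with a KO. The 10 largest held 29.1%, the 20 largest 38.2%, the 50 largest 52.0% and the 100 largest 63.3%. Thus 45 KO sums held 50% of these fragments, 204 held 75% and 790 held 90%. As a share of all fragments, those without a KO included, the 100 largest KO sums held 46.5%, and 133 were needed for 50%. Among single unigenes, also as a share of all fragments, the top 10 held 26.1% and the top 100 held 55.2%, and 71, 386 and 3006 unigenes held 50%, 75% and 90%. KO sums leave out abundant transcripts without a KO, which single unigenes include. By FPKM, 40709 unigenes were above 1, 592 were above 100 and 127 were above 1000. The 8 unigenes above 10000 FPKM held 22.1% of all fragments.

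**Figure D1:**
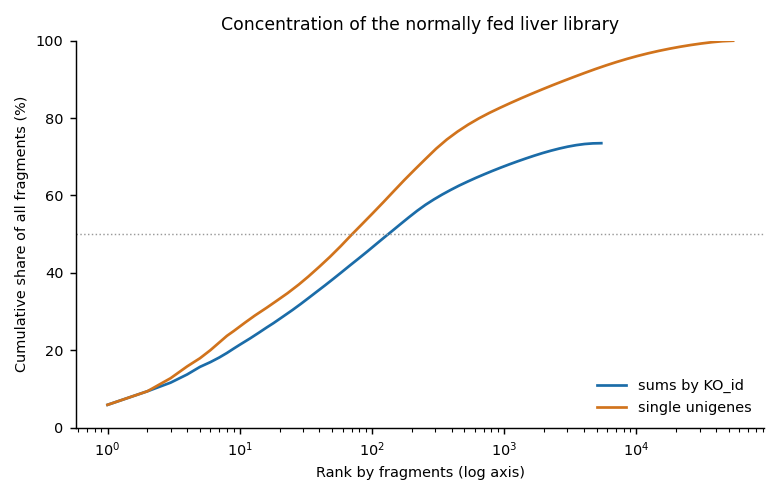
Cumulative share of fragments (%) against rank on a log axis, for fragments summed by KO and for single unigenes in the normally fed liver library, both as a share of all fragments. The line for single unigenes passes 50% at rank 71 and the line for KO sums at rank 133, and the KO line ends at 73.5%, the share of fragments with a KO.

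The largest KO sum was transferrin, the iron carrier of plasma, with 1029474 fragments, 5.88% of the library (95% interval 5.87 to 5.90%), all on 1 unigene at 22590 FPKM. Collectin-12, a C-type lectin with a collagen stem, followed with 612641 fragments (3.50%) and 22799 FPKM on its leading unigene. By Nr, that unigene was named only a C-type lectin, and whether its protein is secreted was not tested. Apolipoprotein A-I, the main protein of high-density lipoprotein, had 391069 fragments (2.24%), and apolipoprotein E, which directs lipoprotein uptake by receptors, had 369589 (2.11%). Trypsin, a protease of the exocrine pancreas, stood at rank 5 with 342687 fragments (1.96%) over 11 unigenes. A digestive enzyme thus followed directly on transferrin, collectin-12 and apolipoproteins A-I and E.

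Ceruloplasmin, the copper-bearing ferroxidase of plasma, had 216084 fragments (1.24%). Biotinidase, a secreted enzyme that frees biotin, had 209163 (1.20%), and complement C3, on which the complement pathways meet, had 204285 (1.17%). The C3 fragments lay on 72 unigenes, and 97.9% of the read placements on them came from reads that also fit another place. Single C3 unigenes could thus not be told apart. Apolipoprotein B, the structural protein of very low-density lipoprotein, had 198323 fragments (1.13%). By summed FPKM ceruloplasmin stood at rank 33 and apolipoprotein B at rank 37, lower than by fragments. C3 stood at rank 6, trypsin at rank 1, collectin-12 at rank 2 and transferrin at rank 3. The C3 sum of 8119 FPKM lay over 72 unigenes, the highest at 1590, and that of trypsin, 23395, over 11, the highest at 8578. Ceruloplasmin had 2312 FPKM on 1 unigene. The C3 rank thus rests on adding unigenes that could not be told apart.

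The sum at rank 10 was not a protein message. Its KO, phosphatidylinositol glycan class F, had 173185 fragments (0.990%), and 173066 of them lay on 1 unigene of 7965 bp with 61.0% GC, whose nucleotide hit named ribosomal RNA and whose best protein hit came from a ciliate. This KO sum was therefore read as ribosomal RNA and as no enzyme.

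For several of the next sums the KO definition and the protein name of the leading unigene named different proteins. Kininogen, the precursor of kinins, had 157803 fragments, but its leading unigene with 88029 was fetuin-B by Swissprot. Ficolin, a lectin that starts the complement cascade, had 123896, of which 115305 lay on a unigene named microfibril-associated glycoprotein 4. Prostaglandin-H2 D-isomerase had 100928, of which 78217 lay on a unigene named AMBP, the precursor of alpha-1-microglobulin and bikunin. A calcium channel subunit had 66389, led by the inter-alpha-trypsin inhibitor heavy chain H2. The protein name was that of a secreted protein in each of these pairs. The share of a list is given under both namings where these differ by over 1.5 times, and for the larger plasma lists.

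The other sums among the top 30 were again mostly secreted proteins. Angiotensinogen, the precursor of angiotensin, had 133098 fragments (0.761%), and complement factor H, an inhibitor of the alternative pathway, had 131597 (0.752%). Fibrinogen gamma and alpha, chains of the clot protein, had 94363 and 71749. Complement C1r, a protease of the classical pathway, had 76794, C7 of the membrane attack complex had 67744, hyaluronan-binding protein 2, a plasma protease, had 76661, and apolipoprotein A-IV had 79319. Among proteins that stay in the cell were the iron store ferritin heavy chain with 128676, the translation factor elongation factor 1-alpha with 107563, the splicing regulator polypyrimidine tract-binding protein 1 with 95058, and endoplasmin, the HSP90 chaperone of the endoplasmic reticulum, with 81053. The mitochondrial genes cytochrome c oxidase subunit 1 and NADH dehydrogenase chain 4 had 90509 and 65843, and the digestive proteases elastase I and chymotrypsin C had 90417 and 76534. Rank 30 closed with 65843 fragments. Just outside were lysozyme C with 65037, cytochrome c oxidase subunit 2 with 62282 and the KO plasminogen with 61998, of which 31546 lay on a unigene named hepatocyte growth factor-like protein.

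Named by the protein, 18 of the 30 sums belonged to the plasma protein lists with 23.3% of all fragments, 2 to further secreted proteins with 1.904%, 3 to the digestive enzymes with 2.91% and 7 to other functions with 4.24%. Ranked by summed FPKM, 18 of the 30 stayed among the top 30, and ranked by reads that fit 1 place only, 29 stayed.

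**Figure D2:**
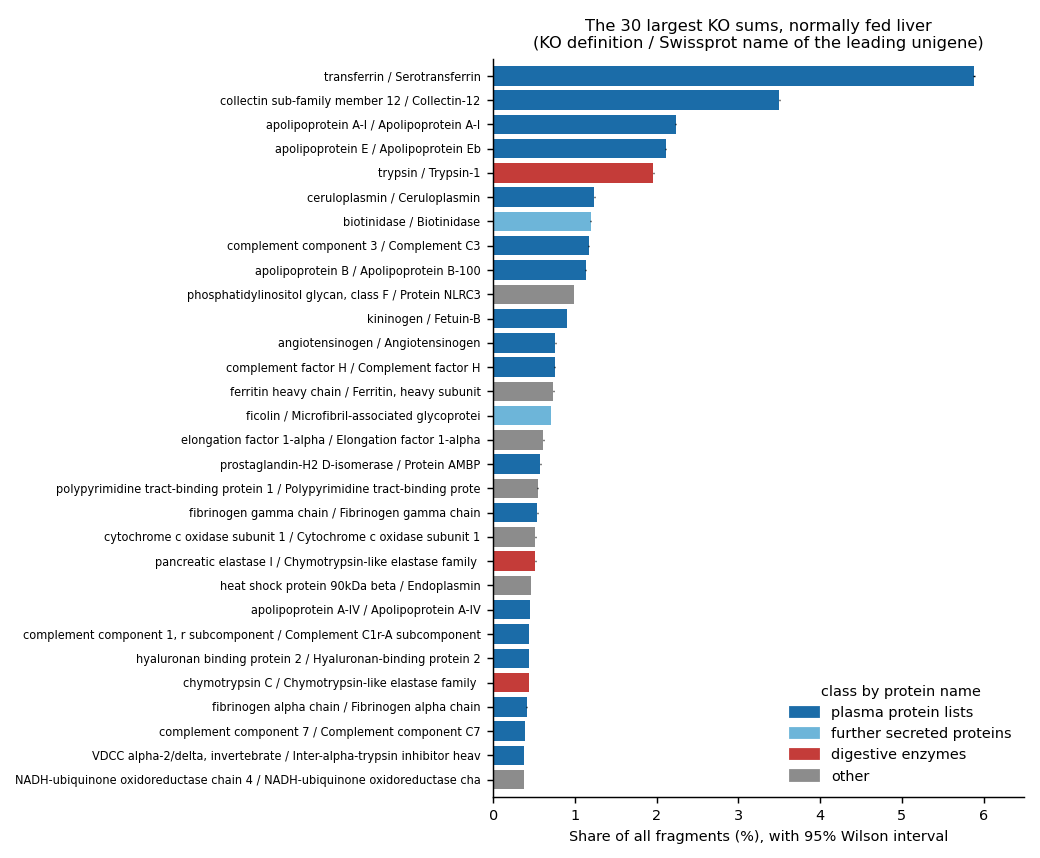
Share of all fragments (%) of the 30 largest KO sums in the normally fed liver library, with the KO definition and the Swissprot name of the leading unigene. Bars are coloured by the class of the protein name and whiskers are 95% Wilson intervals. Transferrin reaches 5.88%, and the bar labelled phosphatidylinositol glycan class F is the ribosomal RNA unigene.

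Several of the most abundant transcripts carried no KO and were missing from the sums above. The 14 kDa apolipoprotein, a small lipid-binding plasma protein of fish, had 591866 fragments (3.38%) and 37508 FPKM, rank 3 among all unigenes by fragments. Leukocyte cell-derived chemotaxin-2, a secreted hepatokine, had 532827 (3.05%) and, at 41895, the highest FPKM of the library. Type-4 ice-structuring protein LS-12, a small helical protein known as an antifreeze in sculpins, had 359315 (2.05%) and 25264 FPKM. Apolipoprotein C-II, the activator of lipoprotein lipase, had 179768 (1.03%) and 7226 FPKM. These 4 unigenes were fully separate in the mapping, with no read that fit another place.

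Abundant unigenes without a known name followed. A hypothetical protein predicted in tilapia had 288176 fragments (1.65%) and 19728 FPKM, rank 8 among all unigenes by fragments. Members of 1 contig cluster, 3 of them among the 10 largest unigenes with no KO, had 107065, 79142 and 78554 fragments, and Swissprot named the last of them alpha-1-acid glycoprotein 1, a plasma lipocalin. Between 74.7% and 91.0% of the reads on these 3 also fit another place. The drtp1 unigene, named after a differentially regulated trout protein of unknown function, had 88198 fragments (0.504%) and, being only 472 bp long, 10681 FPKM. A further hypothetical protein had 74871 fragments. Unigenes whose protein hit carried no informative name held 6.14% of all fragments where no Swissprot hit or KO named them either. The largest unigene with no protein hit at all, of 5964 bp, had 68246 fragments (0.390%).

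Per length, the 10 highest unigenes were leukocyte cell-derived chemotaxin-2, the 14 kDa apolipoprotein, type-4 ice-structuring protein, collectin-12, transferrin, the tilapia-like hypothetical protein, apolipoprotein A-I at 16350 FPKM, drtp1, apolipoprotein E at 8673 FPKM and a trypsin-1 unigene at 8578 FPKM. Of these 10, only the trypsin carried the name of an enzyme.

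By the gene lists, the secreted plasma proteins took a larger part of the library than the enzymes of metabolism. Unigenes of the 9 plasma protein lists held 5741672 fragments, 32.8% of the library, and by FPKM 24.6%. The lists went by name, and whether each member is secreted was not tested. Without the leading collectin-12 unigene, named only a C-type lectin by Nr, the plasma share was 29.3%. Metabolic enzymes were taken as KO entries with an EC number, less listed EC classes of proteases and of enzymes acting on protein or nucleic acid. KO entries of that kind outside those classes stayed in, such as poly(U)-specific endoribonuclease with 16661 fragments and tankyrase with 9625. Members of the plasma and digestive lists, such as ceruloplasmin and bile salt-stimulated lipase, were left out too. So were respiratory chain entries such as cytochrome c oxidase subunit 1, and the respiratory lists of both genomes held 1.96%. The enzymes counted held 1816101 fragments, 10.4%, and by FPKM 6.68%, over 1106 KO definitions. The plasma proteins thus had 3.162 times the fragments of the enzymes, and 3.68 times their FPKM. The plasma lists also took unigenes without a KO by their protein name, while an enzyme needed a KO. By KO only, plasma proteins held 27.3% against the 10.4% of enzymes, so the ratio is smaller on that basis. With unigenes put into lists by protein name rather than by KO, plasma proteins held 34.2% and enzymes 7.37%, a ratio of 4.64. Enzymes were still found by their KO there, and the protein name decided only which of them were left out. That enzyme share also left out further secreted proteins such as biotinidase (1.20%) and the ribosomal RNA unigene (0.989%). The share by KO included both, so the change was not one of naming alone. Biotinidase, the ribosomal RNA unigene, ferritin and the D-isomerase led by AMBP made up 33.7% of the enzyme fragments by KO. The pathway lists of metabolism alone, from glycolysis to conjugation, held 3.36%. Adding further secreted proteins outside the 9 lists, such as leukocyte cell-derived chemotaxin-2 and biotinidase, brought the secreted share to 40.8%. Taken by the GO term for extracellular region or space without digestive enzymes, in place of the lists, the secreted share was 12.6%. Only unigenes with 44.9% of the fragments carried a GO cellular component, so the remainder could not count there.

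**Figure D3:**
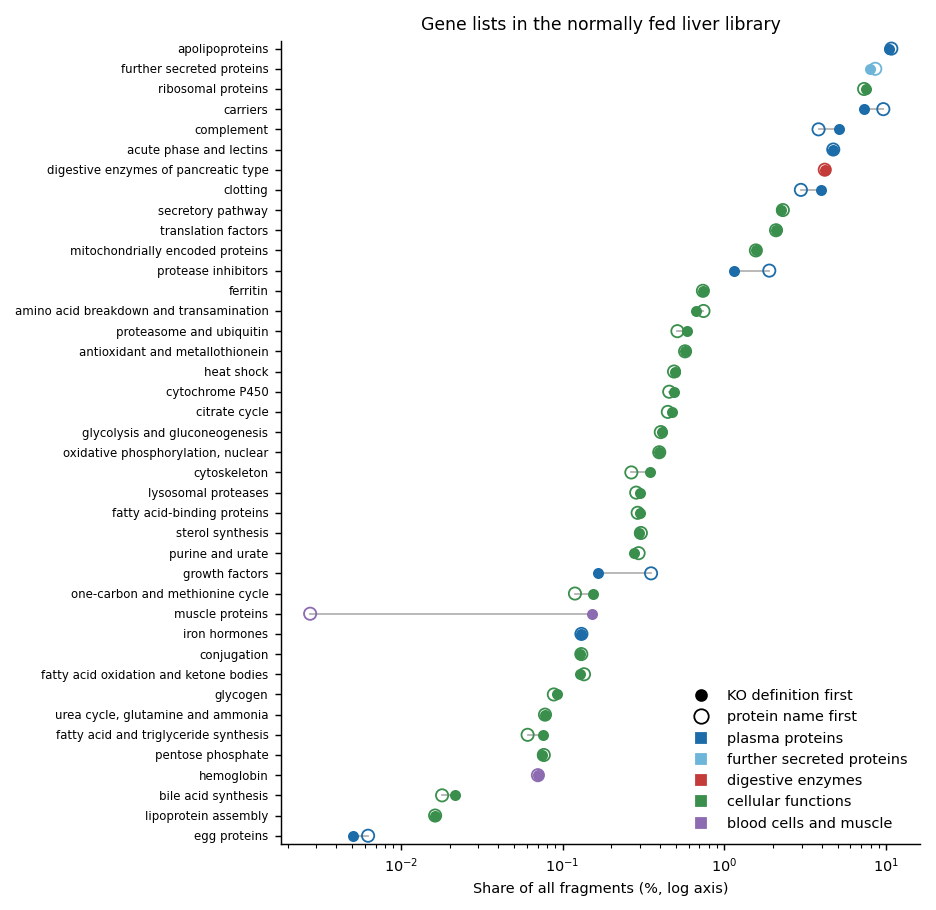
Share of all fragments (%, log axis) of each gene list in the normally fed liver library, with filled points for naming by KO first and open points for naming by protein first. Apolipoproteins lead at 10.4% by KO first, and the pathway lists of metabolism all lie under 1%.

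Apolipoproteins were the largest list by fragments, with 10.4% of all fragments by KO and 10.7% by protein name. By KO the list had 22 unigenes, and the 14 kDa apolipoprotein was 32.5% of its fragments. Apolipoproteins A-I and E came next, then B and C-II. Apolipoprotein A-IV had 79319 fragments, and beta-2-glycoprotein 1 (apolipoprotein H) had 58345 by protein name. Apolipoprotein M, which carries sphingosine phosphate, had 7265 and apolipoprotein C-I 4189. The large subunit of microsomal triglyceride transfer protein, which loads lipid onto apolipoprotein B, had 2848 fragments. By FPKM of the leading unigene, the 14 kDa apolipoprotein stood at 37508, A-I at 16350, E at 8673, C-II at 7226 and A-IV at 3157, so the list did not rest on a single member. As a share of FPKM by KO, the list held 9.53%, behind ribosomal proteins with 12.96% and further secreted proteins with 10.69%.

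Carrier proteins held 7.26% of fragments by KO and 9.59% by protein name, and 3.18% and 4.76% of FPKM in that order. Transferrin alone was 81.1% of the fragments by KO, and ceruloplasmin and retinol-binding protein 4, the vitamin A carrier with 16276 fragments, came next. By protein name the list gained fetuin-B with 100583, AMBP with 99610, alpha-2-HS-glycoprotein (fetuin-A), a mineral-binding protein, with 67863, the hemoglobin binder haptoglobin with 46147, the heme binder hemopexin with 40755, and the selenium carriers selenoprotein Pa with 37824 and Pb with 12871. Transthyretin, which carries thyroid hormone, had only 1533 fragments. No unigene carried the name of serum albumin or of vitamin D-binding protein. Among the iron hormones, 2 hepcidin names, the peptide that blocks iron export, had 11931 and 10708, and LEAP2 had 202.

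Complement held 5.09% by KO and 3.81% by protein name, and most of its pathway was present. By protein name, C3 had 203867 fragments and factor H 102001. Of the classical pathway, C1r-A had 76577, C2 38853, C4-B 18724 and the C1q subunit C 2442, while C1s under 2 names had 769 and 751. Of the alternative pathway, factor B had 14504, with the stabilizer properdin at 10799 and the protease factor D at 276. By KO, factor B had 43064, and its highest unigene, at 1870 FPKM, was the one named C2, so the split between C2 and factor B depended on the naming. Of the membrane attack complex, C7 had 67744, C9 37471, C8 gamma 18106, C5 16160, C8 alpha 7509, C8 beta 5955 and C6 3892. The proteases that start the lectin pathway, MASP1 and MASP2, had 876 and 314. Of the read placements on this list, 91.8% were of reads that fit more than 1 place, so the split between its unigenes is uncertain.

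Clotting and fibrinolysis proteins held 3.97% by KO, where kininogen led, and 2.97% by protein name, where fibrinogen gamma led. Of FPKM they held 2.14% by KO and 1.53% by protein name. Heparin cofactor 2, an inhibitor of thrombin, had 52028 fragments, plasma kallikrein 41008, plasminogen by protein name, the precursor of the fibrin-cutting protease, 30452, factor X 27581, fibrinogen beta 22734, antithrombin-III 14838, factor V 9109, factor IX 8510, prothrombin 5031 and factor VII 2692. The fibrinogen chains differed in fragments, with beta at 22734 against gamma at 94363 and alpha at 71665, and by FPKM of the leading unigene at 495, 1616 and 824 in that order.

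Protease inhibitors held 1.14% by KO and 1.89% by protein name. Angiotensinogen, a serpin without inhibitor function, was 66.7% of the KO sum. Alpha-1-antitrypsin, the inhibitor of neutrophil elastase, had 24810 fragments by KO and 1648 by protein name, and alpha-2-antiplasmin had 19101 by KO. A hibernation-specific plasma protein, a serpin named in chipmunk, had 73178 by protein name over 9 unigenes. Of these, 48795 lay on a unigene that was C1 inhibitor by KO and Nr and counted under complement by KO. The split within this list thus depended on the naming. Growth factors held 0.165% by KO and 0.352% by protein name. By KO, insulin-like growth factor I had 12550 fragments, hepatocyte growth factor 12523 and angiopoietin-like 4 3174. By protein name, hepatocyte growth factor-like protein led with 43898 fragments, and hepatocyte growth factor itself had 102.

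Acute phase proteins and lectins held 4.66% by KO and 4.70% by protein name, and collectin-12 was 75.2% of the sum by KO. After it came drtp1 under that name with 88302 fragments, lysozyme C, which cuts bacterial cell walls, with 65037, and another unigene named differentially regulated trout protein with 47582. C-reactive protein had 1782 fragments, and no unigene carried the name of serum amyloid A. The list thus rested on very few transcripts. The egg proteins were near the bottom of all lists at 0.00508%: a zona pellucida protein 3 had 712 fragments, vitellogenin-1 168 and a zona pellucida-like protein 8.

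Among enzymes and cellular lists, the machinery that makes and exports proteins was the largest. Ribosomal proteins held 7.46% of fragments and, being short messages, 12.96% of FPKM. The 79 KO definitions detected had between 32 and 48473 fragments, with a median of 14298, and 77 of them had at least 1000. The highest was L5e. S25e had 46774 and L35e 35468. Translation factors held 2.09%, led by elongation factor 1-alpha with 107563, the translationally controlled tumor protein with 47851 and elongation factor 1-gamma with 41033. The secretory pathway held 2.25%, led by endoplasmin, the protein disulfide isomerase A1 with 51372 and calreticulin, a chaperone of glycoproteins, with 35619. The translocon, through which nascent chains enter the endoplasmic reticulum, was present with SEC61 alpha at 13906.

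Of the respiratory chain messages, more fragments came from the mitochondrial genome than from nuclear genes. The mitochondrially encoded proteins held 1.56%, led by cytochrome c oxidase subunit 1, NADH dehydrogenase chain 4 and cytochrome c oxidase subunit 2. The nuclear subunits held 0.395%, led by cytochrome c oxidase subunit 5b with 5671 fragments, ATP synthase subunit c with 4499 and cytochrome c oxidase subunit 8 with 4193. Per length the difference was smaller, with 1.16% of FPKM for the mitochondrial list and 0.758% for the nuclear list.

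Carbohydrate enzymes had low to moderate values. Glycolysis and gluconeogenesis held 0.410%, led by glyceraldehyde 3-phosphate dehydrogenase with 20815 fragments and aldolase with 13695. Of the enzymes that serve gluconeogenesis, phosphoenolpyruvate carboxykinase had 9520, fructose-1,6-bisphosphatase 8440 and glucose-6-phosphatase 3813. Of the 9520, 9373 lay on a unigene named as the mitochondrial form of the carboxykinase and 101 on unigenes named as the cytosolic form. Of the irreversible steps of glycolysis, pyruvate kinase had 397, 6-phosphofructokinase 298 and hexokinase 243, and no unigene carried the name of the hexokinase-type glucokinase. By FPKM of the leading unigene these 3 stood at 5.87, 3.87 and 2.87, against 146, 234 and 99.6 for the gluconeogenic enzymes in the order given. Glycogen enzymes held 0.0927%, led by UTP-glucose-1-phosphate uridylyltransferase with 8333, phosphoglucomutase with 3657 and the branching enzyme with 1797. The citrate cycle held 0.471%, of which a unigene named malate dehydrogenase-like was 52.0% with 42861, ahead of isocitrate dehydrogenase with 11611 and malate dehydrogenase with 6498. The pentose phosphate pathway held 0.0744%, led by transketolase with 7567, 6-phosphogluconate dehydrogenase with 2310 and glucose-6-phosphate 1-dehydrogenase with 1223.

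In lipid metabolism, sterol synthesis held more of the library than the making or the burning of fatty acids, with 0.180% of FPKM for sterol synthesis, 0.0500% for synthesis and 0.0890% for oxidation of fatty acids. By fragments, sterol synthesis held 0.295%, with 12 enzymes of the path above 1000 fragments, led by lathosterol oxidase with 8453, hydroxymethylglutaryl-CoA synthase with 8202 and cholestenol delta-isomerase with 6870. The rate-limiting hydroxymethylglutaryl-CoA reductase had 2447. Fatty acid and triglyceride synthesis held 0.0757%, led by delta-6 desaturase, which makes polyunsaturated fatty acids, with 6161, stearoyl-CoA desaturase with 2266 and fatty acid synthase with 2073. By KO this list held no ATP citrate lyase, which the study names among its changed liver genes, so the share leaves it out. Fatty acid oxidation and ketone bodies held 0.127%, led by the alpha and beta subunits of electron transfer flavoprotein with 2848 and 1913 and a trifunctional enzyme with 1904. Carnitine palmitoyltransferase 1, the gate to mitochondrial oxidation, had 324. Fatty acid-binding proteins held 0.301%, led by the acyl-CoA-binding protein (diazepam-binding inhibitor) with 15960, the KO fatty acid-binding protein 6 with 14613, whose protein name was the liver basic type 10-A, and the liver type 1 with 9694. Bile acid synthesis held 0.0216%, led by the sterol 12-alpha-hydroxylase with 2473, a 3-oxo-5-beta-steroid dehydrogenase with 1187 and alpha-methylacyl-CoA racemase with 69. CYP7A1, the rate-limiting enzyme of bile acid synthesis, had 110 fragments by protein name.

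In nitrogen metabolism, urate oxidase and the enzymes of phenylalanine and tyrosine breakdown had the most fragments. Amino acid breakdown held 0.668%, the largest of the pathway lists of metabolism, with phenylalanine hydroxylase at 22834, tyrosine aminotransferase at 15296 and alanine-glyoxylate transaminase at 13333 over 38 unigenes. The one-carbon list held 0.154%, led by glycine hydroxymethyltransferase with 4415, betaine-homocysteine methyltransferase with 4359 and formyltetrahydrofolate dehydrogenase with 3072. The urea, glutamine and ammonia list held 0.0777%, led by glutamate dehydrogenase, which frees ammonia from glutamate, with 6282, argininosuccinate synthase with 1898 and arginase with 1504, and no unigene carried the name of the ammonia type of carbamoyl-phosphate synthase. The purine list held 0.274%, and urate oxidase, which opens the way from urate to allantoin, was 92.2% of it with 44206 fragments, ahead of hydroxyisourate hydrolase with 1125 and hypoxanthine phosphoribosyltransferase with 642.

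In the metabolism of foreign compounds, cytochrome P450 held 0.489%. The CYP3A subfamily was 72.0% of it with 61557 fragments over 15 unigenes, ahead of the CYP2W subfamily with 5623 and CYP1A1, the enzyme induced through the aryl hydrocarbon receptor, with 4502. By FPKM of the leading unigene these 3 stood at 877, 67.4 and 88.0. Of the read placements on the P450 unigenes, 91.4% were of reads that also fit another place. Conjugation held 0.128%, led by glutathione S-transferase with 10500, glucuronosyltransferase with 5670 and catechol O-methyltransferase with 3894. The antioxidant list held 0.573%, led by metallothionein, a binder of zinc and copper, with 36871 fragments and 3394 FPKM, glutathione peroxidase with 15901 and phospholipid hydroperoxide glutathione peroxidase with 7476. Ferritin held 0.736%, all but 5 fragments on the heavy chain KO, and the light chain KO was listed at 0.

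The remaining cell functions were smaller. The proteasome and ubiquitin list held 0.587% over 957 unigenes, of which the HUWE1 ligase had 2919, a ubiquitin-conjugating enzyme E2 D/E 2773 and a ubiquitin hydrolase 2493. The heat shock list held 0.495%, led by the HSP90 family KO HtpG with 35187, HSP70 1/8 with 18655 and DNAJC3 with 6002. The cytoskeleton held 0.347%, led by the KO terms actin with 21351, thymosin beta 4 with 9960 and a type II keratin with 6746. The 9960 fragments of thymosin beta 4 lay on a unigene named RAD50-interacting protein 1 by Swissprot and Nr. Lysosomal proteases held 0.302%, led by cathepsin F with 23876, cathepsin L with 17954 and cathepsin B with 2240. Unigenes in none of the lists held 34.4% of all fragments.

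The label liver was checked against cell type markers, and those of the hepatocyte were all present. All 21 markers had over 100 fragments and together held 12.7% of the library. Besides the plasma proteins above they included the transcription factor HNF4A with 1545 fragments, tyrosine aminotransferase with 15296, hydroxyphenylpyruvate dioxygenase with 5004, glucose-6-phosphatase with 3695, arginase with 1504 and serpin A1 with 1648 by protein name. The lowest were CYP7A1 with 110 fragments and 1.93 FPKM, and the cytosolic phosphoenolpyruvate carboxykinase with 101 fragments and 2.02 FPKM.

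Markers of the exocrine pancreas were the only other ones at such a level. Of 10 markers 9 had a unigene, all 9 had over 1000 fragments, and together they held 3.93% of the library. Trypsin had 342687 fragments, elastase 197865, carboxypeptidase B 36622, chymotrypsin 33995, carboxypeptidase A1 33009, bile salt-activated lipase 25669, carboxypeptidase A2 11709, a pancreatic lipase-related protein 4599 and pancreatic amylase 1417, and no unigene carried the name colipase. The proteases were thus high, and amylase was the lowest of the 9 by FPKM too, at 22.1. The whole list of digestive enzymes held 4.17% of fragments and 5.79% of FPKM. The hormones of the endocrine pancreas were close to absent, with 4 fragments for insulin, 3 for glucagon and 1 for somatostatin. How much pancreatic tissue the livers held was not tested.

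Markers of other cell types were low next to these. Of the erythrocyte, hemoglobin beta had 3584 fragments, alpha 1749, the red cell protein 4.1 402, ALAS2 178 and the band 3 anion exchanger 61, and the hemoglobin list held 0.0704%, led by the KO terms zeta with 8717, epsilon with 3585 and alpha with 11. On the bile duct list, keratin 8 had 6721 and keratin 18 4980, SOX9 had 20, and none was named EPCAM. Which cells made these keratins was not tested. Of macrophages, CD74 had 8169, CSF1R 636, MARCO 577 and MPEG1 102. Of endothelium, KDR had 2350, PECAM1 341, von Willebrand factor 279 and cadherin 5 189. Per length, the highest unigene of the hemoglobin list was at 478 FPKM, keratin 8 at 163 and CD74 at 141.

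The stellate cell, lymphocyte, kidney, gonad, intestine and muscle markers were lower still or rested on 1 gene. Of stellate cells, collagen 1A1 had 52 fragments, collagen 1A2 41 and smooth muscle actin 48, and desmin was not named. Immunoglobulin M had 649, CD3E 14, and CD79A was not named. The kidney transporter SLC12A3 had 498 and uromodulin 59, with SLC12A1 not named. Zona pellucida proteins had 769, and neither DDX4 nor SYCP3 was named. The intestinal fatty acid-binding protein 2 had 7331, aminopeptidase N 341 and the peptide transporter SLC15A1 1, with villin 1 and cadherin 17 not named. Of skeletal muscle, myosin heavy chain had 307, alpha actin 104 and muscle creatine kinase 4, and MYLPF, TNNT3 and parvalbumin were not named. The muscle list held 0.153% by KO, led by a skeletal troponin C with 19901, myosin heavy chain with 6160 and cardiac troponin T with 448, and 0.00275% by protein name, led by cardiac troponin T with 448. Of the fragments under the troponin C entry, 14246 lay on a unigene named calumenin-B, a calcium-binding protein of the secretory pathway.

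**Figure D4:**
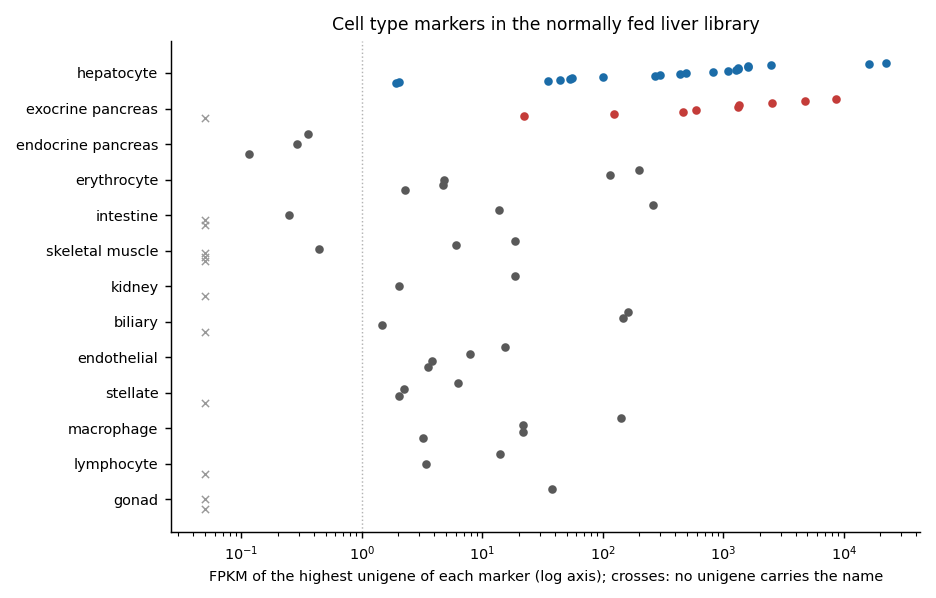
FPKM (log axis) of the highest unigene of each cell type marker in the normally fed liver library, with 1 row per cell type, a dotted line at 1 FPKM and crosses for markers that no unigene was named after. Hepatocyte and exocrine pancreas markers reach 22590 and 8578 FPKM, and the 3 endocrine pancreas markers lie under 1 FPKM.

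The position of the leading genes was then looked up in the other libraries, by rank only. Of the 30 largest KO sums of the normally fed liver, 26 were among the 30 largest under thermal stress, 26 under cold stress and 17 after fasting. Transferrin ranked 1 with normal feeding, 1 under thermal stress, 1 under cold stress and 3 after fasting. Trypsin ranked 5 with normal feeding, 4 under thermal stress, 2 under cold stress and 2 after fasting. Apolipoprotein A-I ranked 3 with normal feeding, 6 under thermal stress, 5 under cold stress and 1 after fasting. Apolipoprotein B ranked 9 with normal feeding, 13 under thermal stress, 10 under cold stress and 8 after fasting. By summed FPKM, transferrin, trypsin and apolipoprotein A-I were within rank 5 in every library. Apolipoprotein B then ranked 37 with normal feeding, 86 under thermal stress, 51 under cold stress and 127 after fasting.

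Other leading genes held their place only in some libraries. Biotinidase ranked 7 with normal feeding, 5 under thermal stress, 9 under cold stress and 375 after fasting, the lowest rank of any of the 30 there. Ficolin (microfibril-associated glycoprotein 4) ranked 15 with normal feeding, 17 under thermal stress, 25 under cold stress and 316 after fasting. Complement C7 ranked 28 with normal feeding, 11 under thermal stress, 24 under cold stress and 240 after fasting. By fragments, these 3 secreted proteins were thus in the top 30 of both stress libraries and far down after fasting. By summed FPKM, biotinidase ranked 10 under thermal and 19 under cold stress, but ficolin 36 and 57 and C7 41 and 80. C7 ranked 96 with normal feeding by that measure. After fasting the 3 ranked 498, 372 and 366 by summed FPKM. Angiotensinogen ranked 12 with normal feeding, 14 under thermal stress, 4 under cold stress and 179 after fasting. Apolipoprotein E ranked 4 with normal feeding, 2 under thermal stress, 3 under cold stress and 146 after fasting. Collectin-12 ranked 2 with normal feeding, 3 under thermal stress, 6 under cold stress and 96 after fasting. The last 2 were within rank 6 in all libraries except that of fasting. Ceruloplasmin ranked 6 with normal feeding, 12 under thermal stress, 11 under cold stress and 79 after fasting. Endoplasmin ranked 22 with normal feeding, 7 under thermal stress, 64 under cold stress and 201 after fasting. Apolipoprotein A-IV ranked 23 with normal feeding, 143 under thermal stress, 28 under cold stress and 92 after fasting. Polypyrimidine tract-binding protein 1 ranked 18 with normal feeding, 78 under thermal stress, 34 under cold stress and 10 after fasting. By fragments it was thus outside the top 30 of both stress libraries but inside that of fasting. By summed FPKM it ranked 99, 216, 139 and 93 in the same order, outside the top 30 of every library. Since each rank came from 1 library, its spread between libraries of the same condition is unknown.

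**Figure D5:**
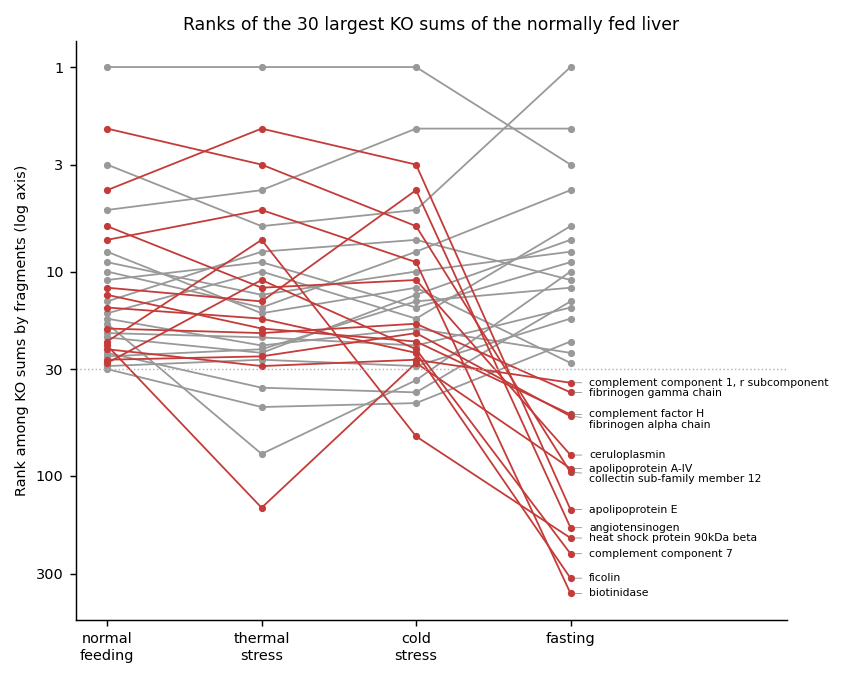
Rank by fragments (log axis, 1 at the top) of the 30 largest KO sums of the normally fed liver, in the normal feeding, thermal stress, cold stress and fasting libraries. Red lines are the 13 sums that ranked below 30 after fasting, down to 375 for biotinidase, and the dotted line marks rank 30.

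Among unigenes with no KO, ranked with all unigenes by fragments, the 14 kDa apolipoprotein ranked 3 with normal feeding, 7 under thermal stress, 3 under cold stress and 1 after fasting. Type-4 ice-structuring protein ranked 7 with normal feeding, 6 under thermal stress, 6 under cold stress and 8 after fasting. Apolipoprotein C-II ranked 11 with normal feeding, 22 under thermal stress, 15 under cold stress and 15 after fasting. These 3 small plasma proteins stayed within rank 22 in every library. Leukocyte cell-derived chemotaxin-2 ranked 4 with normal feeding, 2 under thermal stress, 4 under cold stress and 29 after fasting. The tilapia-like hypothetical protein ranked 8 with normal feeding, 5 under thermal stress, 8 under cold stress and 32 after fasting. The drtp1 unigene ranked 21 with normal feeding, 96 under thermal stress, 34 under cold stress and 1333 after fasting. The other unigene named differentially regulated trout protein went the other way, at 56 with normal feeding, 49 under thermal stress, 30 under cold stress and 11 after fasting. Of the gene lists, ranked by their fragments among 40, apolipoproteins ranked 1 with normal feeding, 3 under thermal stress, 1 under cold stress and 2 after fasting. Ribosomal proteins ranked 3 with normal feeding, 1 under thermal stress, 2 under cold stress and 1 after fasting. The digestive enzymes ranked 7 with normal feeding, 6 under thermal stress, 4 under cold stress and 3 after fasting. Glycolysis and gluconeogenesis ranked 20 with normal feeding, 12 under thermal stress, 16 under cold stress and 9 after fasting. Sterol synthesis ranked 25 with normal feeding, 37 under thermal stress, 33 under cold stress and 38 after fasting.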

How the data were processed

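Liver RNA was sequenced on an Illumina HiSeq instrument from 1 library per condition, and the normal feeding library is described here. Per the study's methods, poly(A) RNA was used and the clean reads of the libraries were assembled de novo and compared with Nr, Swiss-Prot, KEGG and COG by BLASTx. The tool that placed and counted the reads is not given in the sources used here. The deposited counts are raw fragments per unigene, not normalized, and the deposited FPKM values were made from them by the authors (recomputed here with a largest difference of 5.00e-05). The authors' coverage table gives uniquely and multiply placed reads, a coverage depth signal, and the covered length and GC as percent per unigene. Summed over unigenes it holds 80.15 M read placements, 60.0% of them of multiply placed reads. The sum exceeds the clean reads the study reports for this library, so reads with several places were counted more than once. Deposited fold changes and p-values of the authors' comparisons were not used.

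Each unigene was assigned to at most 1 of 39 gene lists by its KO definition, else its Swissprot, else its Nr name (KO first); the reverse, by protein name first, and a 40th list of further secreted proteins were chosen after seeing the data. Shares carry 95% Wilson intervals. Their computation was checked on counts drawn independently from the library's own shares, which cannot show how far real reads or further libraries spread. The text names the 30 largest KO sums, the 10 largest unigenes with no KO, the 10 highest by FPKM, the 3 largest members of each list, and all 75 markers of 13 cell types; other genes were chosen after their values were seen. Metabolic enzymes were KO entries with an EC number of classes 1 to 6, less listed EC classes that act on protein or nucleic acid. Respiratory chain entries and members of the plasma and digestive lists were not counted among them. By protein name first, enzymes were still found by KO, and further secreted proteins and the ribosomal RNA unigene were left out as well. The members and lists were chosen with earlier results of these data known. No replicates exist, so no test, fold change or replicate spread is given. Alternatives were FPKM or unique reads as weights, a minimum of 10 fragments, other denominators, other annotation and other ways to sum. Python 3.11.15, pandas 2.3.3, NumPy 2.4.6, SciPy 1.17.1 and matplotlib 3.10.9 were used.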

Additional observations from a re-analysis of the deposited data

Results flagged for a closer look

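Signal outside the measured proteins came from 3 sources in the normally fed library. Unigenes whose nucleotide hit named ribosomal RNA held 178836 fragments (1.02%) over 42 unigenes. Unigenes whose best protein hit lay outside the vertebrates, ribosomal RNA left out, held 28269 fragments (0.162%) over 539 unigenes, the largest with 3078. A further 756 unigenes were listed with 0 fragments although the coverage table gave 85579 read placements on them. Only 2 of these were of reads that fit 1 place. The cause of each was not tested.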

How the results depend on the processing

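With 1 library per condition, no replicate could be left out. No paired analysis was possible because each condition has 1 library and no result comes from a test. With FPKM as weights the Nr, Swissprot and KO shares were 90.4, 75.7 and 61.3%, plasma proteins 24.6% and metabolic enzymes 6.68%. With unique reads as weights these 5 were 95.5, 85.5, 75.1, 33.5 and 10.7%, with unigenes of at least 10 fragments 95.3, 84.1, 73.8, 33.0 and 10.4%, and without digestive enzymes 94.8, 83.2, 72.4, 34.2 and 10.8%. Nr hits with an E value of at most 1e-20 held 90.6%. On the fragments with a KO or Swissprot hit, plasma proteins held 33.997% and enzymes 12.3%. Plasma proteins held 27.3% by KO only and 12.6% by the GO term for extracellular without digestive enzymes. The pathway lists alone held 3.36%. Further settings were chosen after seeing the data. Naming by protein first gave 34.2 and 7.37%, the latter with enzymes still found by KO and without further secreted proteins and the ribosomal RNA unigene. Further secreted proteins raised the plasma share to 40.8%, and leaving out collectin-12 gave 29.3%. Leaving out the ribosomal RNA unigene alone gave 9.39% for enzymes. For 50% of the fragments with a KO, 45 KO sums were needed, 46 without the ribosomal RNA unigene and 58 by FPKM. For 50% of all fragments, 133 KO sums, 71 single unigenes, 63 contig clusters or 56 Swissprot names were needed, and 81 single unigenes by FPKM. By summed FPKM 18 of the top 30 stayed. Of the 39 lists, 5 were over 1.5 times higher and 15 over 1.5 times lower by FPKM, muscle proteins stood at 0.153% by KO first and 0.00275% by protein first, and the citrate cycle moved to 0.269% on the fragments with a KO or Swissprot hit. The malate dehydrogenase-like unigene, 52.0% of the citrate cycle list, had no KO and no Swissprot hit. By definition it was not among the fragments with a KO or Swissprot hit. The cause of the other shifts was not tested beyond the settings themselves.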
